A study of Saccharomyces cerevisiae with 28 samples.

Results

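The genes described here encode the proteins of the cytosolic large ribosomal subunit of Saccharomyces cerevisiae. They were taken as every row of the deposited tables whose locus tag carries an RPL symbol, or is RPP0, RPP1A, RPP1B, RPP2A or RPP2B, in the RefSeq annotation. The rule found 81 genes of the 6692 in the tables, which encode 46 proteins: 35 proteins have 2 paralogous genes, A and B, and 11 have a single gene. The proteins run from 25 residues (RPL41A and RPL41B) to 387 residues (RPL3).

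The tables hold 28 libraries, a ribosome footprint library and an rRNA-depleted mRNA library from each culture of a strain labelled 4Gts (YWG1246, YAJ41) and one labelled WT (YWG1245, YAJ3). The series describes the cells as depleted of eIF4G, the scaffold of the cap-binding complex, and the labels give no genotype beyond the strain names. In synthetic complete medium (SC), 8 cultures were grown with 2% raffinose and 2% galactose for 30 min and then held at 36 °C for 2 h or 8 h, with 2 cultures, numbered 1 and 2, per strain and time. In the rich medium YPA, 6 cultures, 1 per strain and stage, were taken in 2% raffinose at 25 °C (pre-shift), after 30 min with 2% galactose added at 25 °C (0 h), and after 2 h at 36 °C. Cycloheximide at 0.1 mg/ml was added to every culture at harvest. As a check of the labels, mRNA of TIF4632, which encodes eIF4G2, was at most 0.505 RPKM in the 4 4Gts cultures in SC and at least 20.1 RPKM in the 4 WT cultures, while mRNA of TIF4631, which encodes eIF4G1, was between 201 and 405 RPKM in 4Gts and between 54.3 and 80.4 RPKM in WT. In YPA, TIF4632 mRNA was at most 1.29 RPKM in 4Gts and at least 52.8 RPKM in WT. TIF4631 mRNA had no single direction there, with 286, 324 and 175 RPKM at pre-shift, 0 h and 2 h in 4Gts, against 333, 174 and 208 RPKM in WT.

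The large subunit joins amino acids at the peptidyl transferase centre and passes the chain out through the exit tunnel. Its acidic P-stalk recruits the GTPase elongation factors. In yeast most of its proteins come from duplicated genes, many of which hold an intron. Most of the set is transcribed together under Rap1, Ifh1, Fhl1 and Sfp1, and the set is repressed in heat stress and when growth signalling falls. The annotated gene is longer than its coding sequence for 53 of the 81 genes and of equal length for 28. Values are RPKM, the reads of a gene scaled by its coding length and by the reads of the library. Translation efficiency (TE) is the footprint RPKM of a gene over its mRNA RPKM. Levels and TE values of single cultures are given as deposited, whereas every log2 difference between groups was taken after scaling each library to the median gene, so a difference need not equal the ratio of the printed levels. Counts of genes whose cultures do not overlap also use the scaled values, unless stated otherwise. Every level and difference is relative to the other genes of the same library, so a change common to all genes would not be seen. No sequence is printed.

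Large subunit genes took a larger share of footprint and mRNA reads in 4Gts than in WT in every SC comparison of like number and time. In SC footprints, the 81 genes took 11.96% (number 1) and 8.57% (number 2) of the reads at 2 h and 11.4% and 5.03% at 8 h in 4Gts cultures, against 4.94% and 2.497% at 2 h and 4.94% and 2.30% at 8 h in WT cultures. In SC mRNA the shares were 5.81%, 4.26%, 5.53% and 3.07% in 4Gts and 2.58%, 1.18%, 2.48% and 1.13% in WT, in the same order. The lowest 4Gts share was above the highest WT share in both kinds of library. In YPA footprints the share at pre-shift, 0 h and 2 h was 13.5%, 8.20% and 13.4% in 4Gts and 12.5%, 6.66% and 8.35% in WT. Shares in YPA are not set against those in SC, since reads of paired copies appear to be treated differently in the 2 media. In WT mRNA at 2 h, log2 YPA over SC was 1.14 to 2.90 over the 11 single-copy genes. With copies summed, 8 of the 35 pairs lay below all of these, and the part of read treatment was not tested. Reads in genes came to 3.92 to 18.1 M reads per SC mRNA library, 4.59 to 11.1 M reads per SC footprint library, 1.71 to 3.27 M reads per YPA mRNA library and 1.35 to 5.62 M reads per YPA footprint library, as recovered from the steps between the lowest RPKM values. Every one of the 81 genes therefore rests on many reads, with a lowest value of 64 reads for RPL15B in YPA and of 124 reads for RPL22B in SC.

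**Figure D1:**
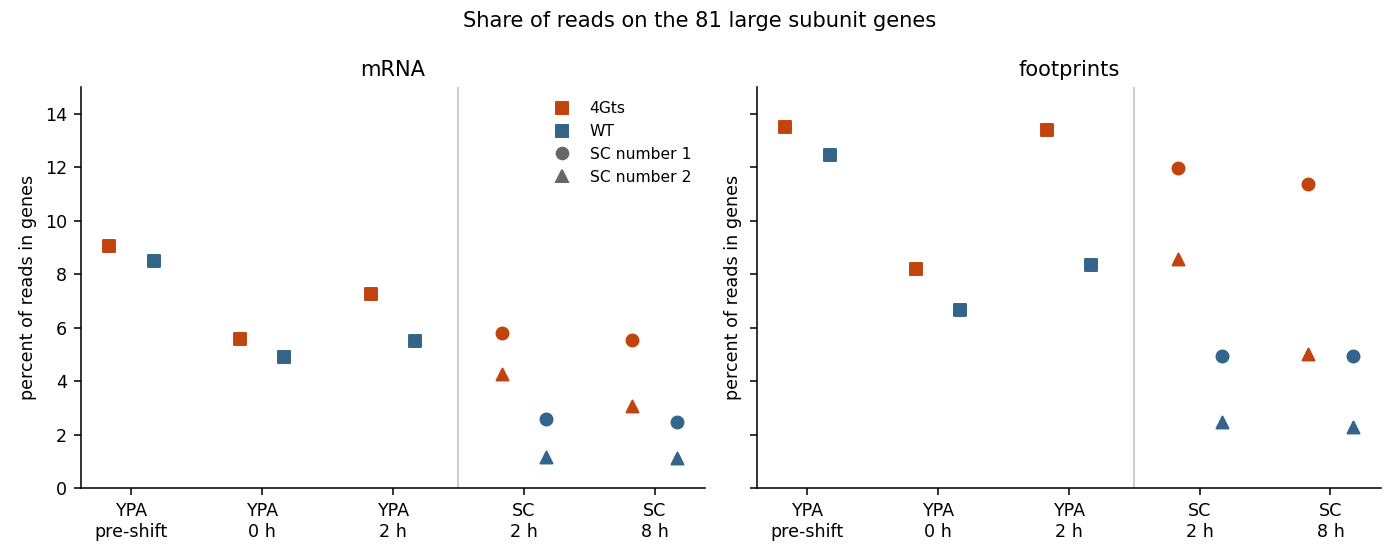
Percent of the reads in genes that fell on the 81 large subunit genes (y axis), by medium and time (x axis), in mRNA libraries (left) and footprint libraries (right). Each point is 1 library, with 4Gts left of WT at each time. Shares in YPA and SC are not set against each other, since reads of paired copies appear to be treated differently. In SC, the 4Gts footprint libraries lie between 5.03% and 11.96% and the WT libraries between 2.30% and 4.94%.

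Within each SC group, culture number 1 had more of these transcripts than culture number 2. The log2 difference of number 1 over number 2 had a median over the 81 genes of 0.44 in 4Gts at 2 h, 0.74 in 4Gts at 8 h, 1.31 in WT at 2 h and 1.29 in WT at 8 h for mRNA, and number 1 was higher for 75, 79, 81 and 81 genes. The heat shock genes HSP104, HSP26 and SSA4 ran the other way. Their summed mRNA was 1549 (number 1) and 6278 RPKM (number 2) at 2 h and 1370.2 and 13245 RPKM at 8 h in 4Gts, against 5852 and 22143 RPKM at 2 h and 8283 and 27073 RPKM at 8 h in WT. The galactose-induced gene GAL1 had 936 and 169 RPKM of mRNA at 2 h and 591 and 104 RPKM at 8 h in 4Gts, against 1481 and 1927 RPKM at 2 h and 1608 and 1419.8 RPKM at 8 h in WT. The part of these differences between cultures in the results below was not tested. Same-numbered cultures deviated together in mRNA and footprints, and the number was used as a block. Values from a fit with it are given where they change a call or a count. In TE, number 1 was higher for 54 genes at 2 h and 81 at 8 h in 4Gts, but for 13 and 38 in WT. The block takes the same gap between numbers for both strains, whereas these TE counts, and the mRNA medians of 0.44 and 1.31 at 2 h, differed between strains.

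**Figure D2:**
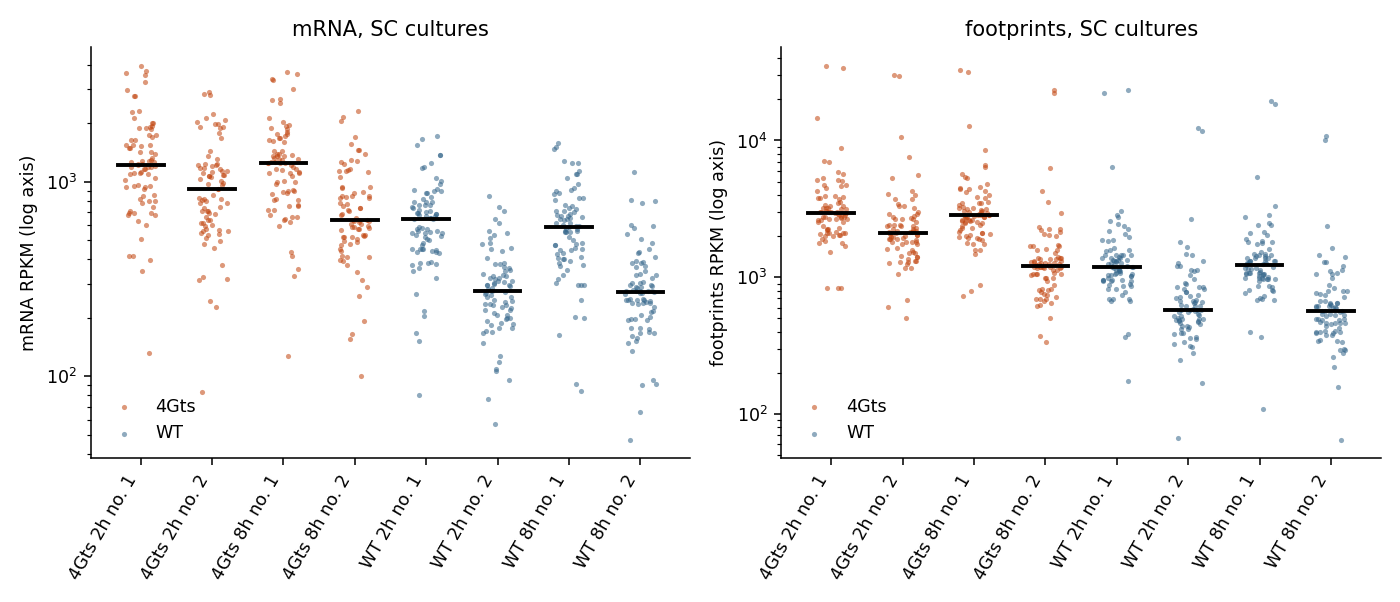
RPKM of the 81 large subunit genes (log axis) in each of the 8 SC cultures (x axis), for mRNA (left) and footprints (right). Each point is 1 gene and each bar the median over the 81 genes, which for mRNA lies between 636 and 1245 RPKM in 4Gts cultures and between 272 and 640.4 RPKM in WT cultures.

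Transcripts of the large subunit were high in every culture. Their median mRNA level in SC was 1213, 914, 1245 and 636 RPKM in the 4Gts cultures (number 1 and 2 at 2 h, then at 8 h) and 640.4, 275, 585 and 272 RPKM in the WT cultures, where the median over the 4689 genes tested lay between 39.7 and 46.9 RPKM in all 8 cultures. By mean WT level in SC, RPL28, in which mutations give cycloheximide resistance in yeast, was highest at 2987 ± 653 RPKM in 4Gts and 1211 ± 513 RPKM in WT (SD, n = 4 cultures each, 2 h and 8 h together). RPL10, which joins the subunit late and contacts bound tRNA, had 3189 ± 741 RPKM in 4Gts and 1189.8 ± 444 RPKM in WT. RPL41B, which encodes the 25-residue protein at a bridge between the subunits, had 1511 ± 649 RPKM in 4Gts and 1160.5 ± 350.0 RPKM in WT. These 3 levels in WT lie within each other's spread. At the low end stood B genes: RPL15B had 110.3 ± 22.8 RPKM in 4Gts and 76.9 ± 7.94 RPKM in WT, RPL22B had 289 ± 89.0 RPKM in 4Gts and 86.7 ± 47.0 RPKM in WT, and RPL18B had 292 ± 116 RPKM in 4Gts and 134 ± 36.5 RPKM in WT.

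All 81 large subunit genes had more mRNA in 4Gts than in WT cultures in SC at 2 h, at 8 h and on average. The median log2 difference was 1.35 at 2 h, 1.19 at 8 h and 1.29 averaged, and the averaged median over all 4689 genes was 0.01. The size moved most with the WT cultures: without number 1 or number 2 of WT at 2 h the median at 2 h was 1.98 or 0.66, and without number 1 or number 2 of WT at 8 h that at 8 h was 1.85 or 0.57. Taken within each pair of same-numbered cultures, the median difference corresponded to 1.81-fold and 3.68-fold for numbers 1 and 2 at 2 h and to 1.90-fold and 2.74-fold at 8 h, and the difference was above 0 for 81, 80, 81 and 81 genes; RPL41B at 2 h in number 2 was the exception. The 2 strains' cultures did not overlap for 73 genes at 2 h, for 65 genes at 8 h and for 43 genes over both times, all of them higher in 4Gts. Of all genes tested, 26.3%, 18.8% and 12.7% were higher without overlap, and 25.7%, 19.6% and 13.3% lower. As deposited, 55 of the 81 genes were without overlap over both times, where 13.1% of all genes were higher and 11.7% lower.

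By limma on log2(RPKM + 1) with Benjamini-Hochberg adjustment at 0.05, none of the 81 genes passed for mRNA at 2 h, at 8 h or averaged, where 0.0427%, 0% and 2.58% of all genes tested passed as higher and 0.0213%, 0.0213% and 3.35% as lower. At an unadjusted p under 0.05, the same fit counted 27, 14 and 68 of the 81, all higher, where 9.34%, 5.18% and 15.1% of all genes were counted as higher and 10.2%, 4.82% and 13.8% as lower. With the culture number as a block, 76 genes passed as higher at 2 h, 48 at 8 h and 79 averaged, where 14.5%, 4.97% and 21.6% of all genes passed as higher and 12%, 2.2% and 17.7% as lower. With 1 culture left out, the averaged count with the block was between 75 and 79. At 2 h that count was 0 without number 2 of 4Gts at 2 h or either WT culture at 2 h, and between 66 and 75 otherwise. At 8 h it was 67 and 72 without either 4Gts culture at 2 h, and 0 without any 1 of the other 6. RPL41A and RPL41B were the 2 genes that did not pass with the block in the averaged comparison.

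The averaged mRNA differences are given by place in the subunit. RPL5, which binds the 5S RNA, had 3269, 2234, 3321 and 1568 RPKM in 4Gts (number 1 and 2 at 2 h, then at 8 h), against 1243, 442, 1138 and 385 RPKM in WT, a log2 difference of 1.80 ± 0.54 (SE). Its partners in the 5S RNA particle, RPL11A and RPL11B, differed by 1.11 and 1.14. The 7 genes of the P-stalk and its base (RPP0, RPP1A, RPP1B, RPP2A, RPP2B, RPL12A and RPL12B) had a median of 1.53. Another 7 genes, RPL10, RPL28, RPL2A, RPL2B, RPL3, RPL42A and RPL42B, had a median of 1.41. They were grouped loosely as around the peptidyl transferase centre and the GTPase site. The 14 genes of the exit tunnel and its rim had a median of 1.10. RPL3, which reaches towards the peptidyl transferase centre, differed by 1.41, and RPL30, which in yeast lowers the splicing of its own transcript, by 1.57. RPL25, where nascent-chain factors dock at the tunnel's end, differed by 1.10, and RPL39, the small protein that lines the tunnel, by 1.07. RPL40A and RPL40B, made as fusions to ubiquitin, differed by 1.36 and 1.30. The largest averaged differences were those of RPL16B and RPL2B, both 1.82, and RPL5. The smallest were those of RPL41B at 0.27, RPL15B at 0.48 and RPL41A at 0.57.

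RPL41B mRNA was 2132 and 598 RPKM at 2 h and 1616 and 1698 RPKM at 8 h in 4Gts, against 1555 and 709.8 RPKM at 2 h and 1249 and 1128 RPKM at 8 h in WT. The strains overlapped, and neither fit called it (limma adjusted p = 0.736 without and 0.528 with the block). The coding sequence of RPL41A and RPL41B is 78 nt, and the steps between deposited values fit reads divided by the coding length less 24 nt. Their level thus depends more on that correction than that of any longer gene, whereas in TE the shared divisor cancels.

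Ribosome footprints on the large subunit genes were also higher in 4Gts for all 81 genes at 2 h, at 8 h and averaged. The median log2 difference was 1.45 at 2 h, 1.12 at 8 h and 1.27 averaged, beside 0.00, 0.03 and 0.02 over all genes. Leaving out 1 culture put the median between 0.83 and 2.03 at 2 h (without number 2 and without number 1 of WT at 2 h) and between 0.48 and 1.75 at 8 h (without number 2 and without number 1 of WT at 8 h). The median at 8 h was 0.54 without number 1 and 1.69 without number 2 of 4Gts at 8 h. The strains' cultures did not overlap for 79 genes at 2 h, for 31 genes at 8 h and for 25 genes over both times, all of them higher in 4Gts. Of all genes, 26.3%, 17% and 12.4% were higher without overlap, and 26.3%, 17.9% and 14.3% lower. As deposited, 36 of the 81 genes were without overlap over both times, where 14.4% of all genes were higher and 12.4% lower. Within each of the 4 pairs of same-numbered cultures, the difference was above 0 for 81 of 81 genes.

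In the averaged comparison 4 of the 81 genes passed as higher in footprints by limma, RPL22B, RPL10, RPL7B and RPL8A, where 3.13% of all genes passed as higher and 6.55% as lower. None passed at 2 h (0.277% of all genes higher and 0.981% lower) or at 8 h (0% higher and 0.0213% lower), with 25 and 5 of the 81 genes higher at an unadjusted p under 0.05, where 7.68% and 4.61% of all genes were higher and 11.9% and 6.89% lower. With the block, 81 genes passed at 2 h, 77 at 8 h and 81 averaged, where 15.8%, 10% and 23.4% of all genes passed as higher and 16.3%, 7.95% and 22.3% as lower. Without the filter on low values 1 gene passed in the averaged comparison, and with 2 h and 8 h averaged before the fit 0 did. Leaving out any 1 of the 8 cultures brought the averaged count without the block to between 0 and 2, and kept the count with the block at 81. At 2 h the count with the block lay between 53 and 81, lowest without number 2 of WT at 2 h. At 8 h it was 0 without number 1 of 4Gts or either WT culture at 8 h, 41 without number 2 of 4Gts at 8 h, and between 60 and 81 otherwise.

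RPL10 had 8818, 7583, 8488 and 4249 footprint RPKM in 4Gts, against 2743, 1658, 2839.5 and 1416 RPKM in WT. Every 4Gts culture was above every WT culture, and the log2 difference was 1.69 ± 0.38 (SE, limma adjusted p = 0.0459, 0.00108 with the block). RPL7B, an rRNA-binding protein, had 2108, 1614, 1948 and 1080.5 RPKM in 4Gts, against 696, 476, 724 and 438 RPKM in WT, and differed by 1.45 ± 0.32 (limma adjusted p = 0.0459). RPL8A, which takes part in early assembly of the subunit, had 1534, 1765, 1485 and 1048 RPKM in 4Gts, against 691, 391, 697 and 379 RPKM in WT, and differed by 1.40 ± 0.33 (limma adjusted p = 0.0495). For both genes the strains did not overlap. RPL10, RPL7B and RPL8A each passed in 0 of the 8 fits without the block that left out 1 culture, with a lowest adjusted p by limma of 0.0584, 0.0577 and 0.0742, and in 8 of 8 with the block.

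The largest footprint differences after RPL22B were those of RPL9A at 2.17 and RPL15A at 1.75, and neither passed without the block (limma adjusted p = 0.123 and 0.149, against 0.00141 and 0.00245 with it). RPL9A had 2532, 1513, 2299.6 and 692 RPKM in 4Gts, against 675, 169.7, 678 and 158 RPKM in WT. Number 2 of 4Gts at 8 h lay close to number 1 of WT, above it as deposited and overlapping after scaling. The smallest footprint differences were those of RPL32 at 0.86, RPL41B at 0.87 and RPL9B at 0.89.

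**Figure D3:**
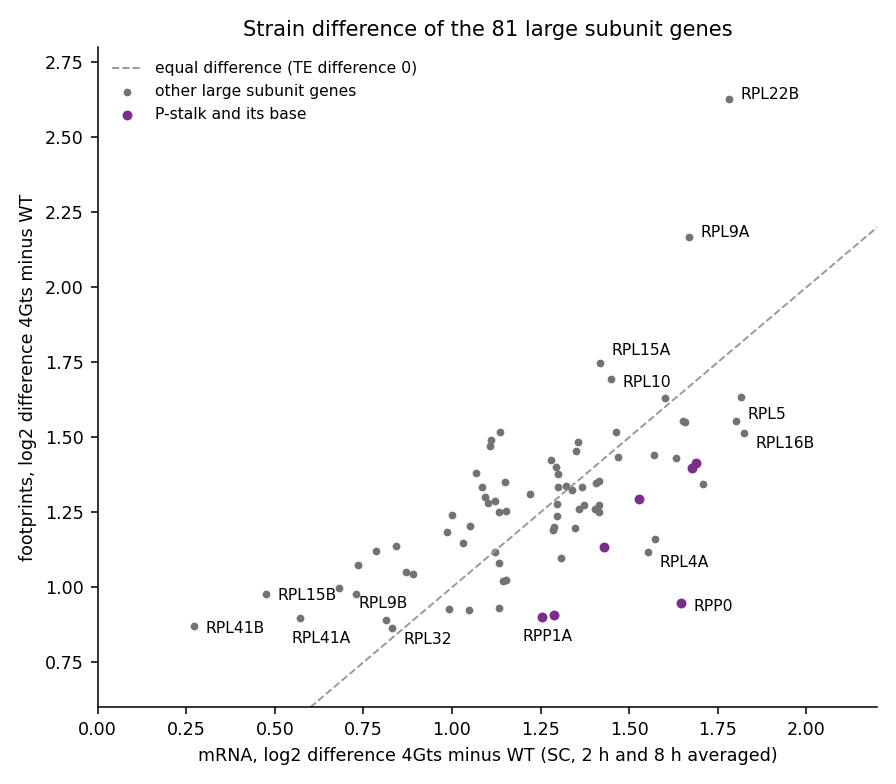
Log2 difference of 4Gts minus WT in SC, 2 h and 8 h averaged, for footprints (y axis) against mRNA (x axis). Each point is 1 of the 81 genes, in purple those of the P-stalk and its base. Points above the dashed line had a higher TE in 4Gts and points below it a lower one, with RPL22B at 1.78 for mRNA and 2.63 for footprints and RPP0 at 1.65 for mRNA and 0.95 for footprints.

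The median TE difference over the 81 genes was 0.12 on the log2 scale at 2 h, -0.07 at 8 h and 0.02 averaged, with 52, 27 and 41 genes above 0. The 2 culture numbers differed in direction: for number 1, 66 genes at 2 h and 61 at 8 h were above 0, and for number 2, 32 and 15. By limma, 1 gene passed as higher (RPL22B) and 1 as lower (RPP0) in the averaged comparison, where 2.6% of all genes passed as higher and 5.08% as lower. No gene of the 81 passed at 2 h (0% of all genes higher and 0.171% lower) or at 8 h (0% in each direction), where at an unadjusted p under 0.05, 10 and 1 of the 81 genes were higher (8.66% and 4.91% of all genes) and 2 and 1 lower (11.8% and 6.61%). Both averaged calls were lost without the filter on low values, and with 2 h and 8 h averaged before the fit. With the block, RPL22B, RPL15B and RPL9A passed as higher (7.12% of all genes) and RPP0 as lower (11.1%). The averaged count with the block ran from 0, without either 4Gts culture at 8 h, to 9, without number 1 of 4Gts at 2 h. Of the 8 fits with the block that left out 1 culture, RPL22B passed in 6, RPP0 in 4 and RPL15B and RPL9A in 1 each. At 2 h RPL22B alone passed with the block (1.98% of all genes higher, 4.86% lower), and at 8 h no gene of the 81 passed by either fit (0% higher and 0.064% lower with the block). With 1 culture left out, the counts with the block were 0 to 4 at 2 h and 0 to 1 at 8 h. The strains did not overlap for 28 genes higher and 9 lower at 2 h (25.8% and 26.3% of all genes) and for 4 higher and 12 lower at 8 h (21.2% and 22.1%).

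RPL22B had the largest footprint and TE differences of the 81 genes. The gene lies on chromosome VI, positions 64243 to 64932 of the R64 assembly, with 690 nt between its ends and a coding length of 369 nt. Its protein product, like that of RPL22A, binds rRNA, and in yeast Rpl22 is known to bind the intron of the RPL22B transcript and lower its splicing. RPL22B mRNA was 346, 326, 327 and 156 RPKM in 4Gts, against 151, 56.9, 91.4 and 47.3 RPKM in WT. Footprint levels were 836, 610.4, 799 and 371 RPKM in 4Gts, against 175, 67.3, 109 and 65.1 RPKM in WT. The footprint difference of 2.63 ± 0.45 (SE, limma adjusted p = 0.0249) was the largest. Its TE was 2.41, 1.87, 2.44 and 2.38 in 4Gts, against 1.16, 1.18, 1.19 and 1.37 in WT, and the lowest 4Gts value was above the highest WT value. The TE difference was 0.84 ± 0.15 (SE, limma adjusted p = 0.0238, 0.0108 with the block), and it lay between 0.73 and 0.96 when each culture was left out in turn, with an adjusted p between 0.0244 and 0.0891 and 2 of the 8 fits below 0.05.

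RPL22A, the major paralog, had a TE of 2.74, 2.22, 2.52 and 1.85 in 4Gts, against 2.10, 2.26, 2.23 and 2.28 in WT, and these overlapped (log2 difference 0.02, limma adjusted p = 0.957). The mean log2 ratio of TE of A over B was 0.03 in 4Gts and 0.86 in WT.

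RPP0, the base protein of the P-stalk and a single-copy gene, had the lowest TE difference. Its mRNA was 3709.5, 2892, 3601 and 2058 RPKM in 4Gts, against 1366, 647, 1513 and 579 RPKM in WT. Footprint levels were 2910.2, 1898, 2861 and 1256 RPKM in 4Gts, against 1624, 779.9, 1443 and 652 RPKM in WT. The TE was 0.785, 0.656, 0.794 and 0.610 in 4Gts, against 1.19, 1.20, 0.954 and 1.12 in WT, without overlap. The log2 difference was -0.70 ± 0.16 (SE, limma adjusted p = 0.0395, 0.0182 with the block). It lay between -0.80 and -0.60 when each culture was left out, with an adjusted p between 0.0300 and 0.148 and 1 of the 8 fits below 0.05.

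The other P-stalk genes had TE differences below 0 as well, none of which passed. The averaged values were -0.35 for RPP1A, -0.38 for RPP1B, -0.28 for RPP2A and -0.27 for RPP2B, and all 7 genes of the stalk and its base were below 0 at 2 h and at 8 h, where 29 and 54 of the 81 genes were. Within pairs, all 7 were below 0 for number 2 at both times, and 4 at 2 h and 3 at 8 h were below 0 for number 1. RPL4A and RPL4B, which reach into the exit tunnel, had averaged TE differences of -0.44 and -0.41, and neither passed (limma adjusted p = 0.0944 and 0.121). Reads that match both copies appear to be split in SC. Summed reads of the RPL4 pair were whole in 16 of 16 SC libraries and those of RPL4A in 5. The 2 differences are therefore not independent. RPL4A had a TE of 0.766, 0.653, 0.791 and 0.708 in 4Gts, against 0.950, 0.956, 0.881 and 1.03 in WT, without overlap. After scaling, the 2 strains also did not overlap for RPL5 and RPL37B, both lower in 4Gts, and for RPL15B, higher in 4Gts, which makes 2 genes higher and 5 lower without overlap (9.98% and 11.7% of all genes). As deposited, RPL37B overlapped and RPL11B was higher without overlap, which makes 3 higher and 4 lower (11.4% and 9.79% of all genes).

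Shorter proteins of the subunit tended to have higher TE. With the values of each pair summed, TE in WT SC cultures had a median of 2.19 and ran from 0.993 for RPL4 to 16.04 for RPL41, and 4.80 for RPL39 was the highest after RPL41. Spearman's rho of TE with coding length over the 46 proteins was -0.55 in 4Gts and -0.61 in WT in SC, and -0.52 and -0.59 without RPL41. In the pre-shift YPA cultures it was -0.48 in 4Gts and -0.39 in WT. The rho values describe proteins within the same libraries, which share depth, and carry no test. The high TE of RPL41 in SC did not recur in YPA, where it was 2.07 at pre-shift and 2.31 at 2 h in WT. TE in the pre-shift WT culture ran from 1.05 for RPP0 to 2.21 for RPL31. Reads of paired copies appear to be treated differently in the 2 media, and the part of that was not tested.

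No large subunit gene passed a test between 2 h and 8 h at 36 °C. In 4Gts, the median log2 difference of 8 h minus 2 h was -0.23 for mRNA and -0.32 for footprints, with 81 of 81 genes below 0 in footprints. In WT the medians were -0.11 and -0.03. No gene of the 81 passed in any layer, with or without the block, and 0% of all genes passed in these comparisons. At an unadjusted p under 0.05, 0 of the 81 were counted without the block in either strain, where 0.0427% to 3.58% of all genes were in the 6 comparisons. With the block 2 were counted, both lower, in 4Gts footprints (3.33% of all genes), and 0 in the other 5 (0.597% to 6.31%). The strain difference at 8 h minus that at 2 h had a median of -0.30 in footprints and of -0.11 in mRNA, and no gene of the 81 passed the test of that change, where 0% of all genes passed without the block and at most 0.0213% with it. At an unadjusted p under 0.05, 0 of the 81 were counted by either fit, where 0.107% to 1.94% of all genes were without the block and 1.11% to 3.41% with it.

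The 2 copies of a pair were often unequal in level. Reads that match both copies appear to be split between them in the SC tables: the summed reads of the 2 copies were whole numbers (within 0.06 of one) in all 16 SC libraries for 16 of the 35 pairs, and those of the A copy alone for 0 pairs. In the YPA tables, all 81 genes had whole reads in all 12 libraries. Copies that share reads in SC are not independent of each other in counts over the 81 genes. Splitting can draw a ratio of A over B towards 1, by an amount not measured here, and the ratios in SC are not set against those in YPA. With that limit, the median absolute log2 ratio of A over B for mRNA was 0.36 over the 35 pairs in SC, and 8 pairs were past 2-fold. The most unequal pairs were RPL15 with log2 A over B of 3.08, RPL18 with 2.53, RPL22 with 1.82 and RPL36 with -1.67, by mean mRNA over the 8 SC cultures. The most equal were RPL26 with -0.06, RPP2 with -0.07, RPL11 with -0.08 and RPL34 with 0.10.

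The ratio of TE between paralogs differed little between strains, with a median absolute difference of 0.08 over the 35 pairs. Reads split between copies can hold this ratio alike in both strains, by an amount not measured here. In 4Gts the ratio was higher without overlap for 2 of the 35 pairs and lower without overlap for 3. The 4 pairs whose TE ratio differed most were RPL22 at -0.83 (4Gts minus WT), RPL9 at 0.42, RPL20 at -0.30 and RPL41 at -0.27. For RPL22 the log2 TE ratio was 0.19, 0.24, 0.05 and -0.36 in 4Gts, against 0.86, 0.93, 0.91 and 0.73 in WT, without overlap. For RPL20 it was -0.81, -0.72, -0.62 and -0.60 in 4Gts, against -0.34, -0.39, -0.49 and -0.36 in WT, also without overlap. The RPL9 and RPL41 pairs overlapped between strains. In RPL9 the mRNA itself was split differently: log2 A over B was -0.15, -0.38, -0.26 and -0.71 in 4Gts, against -0.71, -1.73, -0.64 and -1.86 in WT, and the lowest 4Gts culture lay within the WT range.

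With the values of both copies of a pair summed before the fit, 46 of 46 proteins were higher in 4Gts in mRNA and footprints in each strain comparison. None passed in mRNA and 1 passed in footprints in the averaged comparison without the block (2.79% and 3.2% of all genes in that fit higher, 3.46% and 6.57% lower), and 45 and 46 passed with it (21.2% and 23% higher, 17.6% and 22.1% lower). RPP0 was the 1 protein that passed in TE, as lower, by both fits (4.96% of all genes without and 11.1% with the block).

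**Figure D4:**
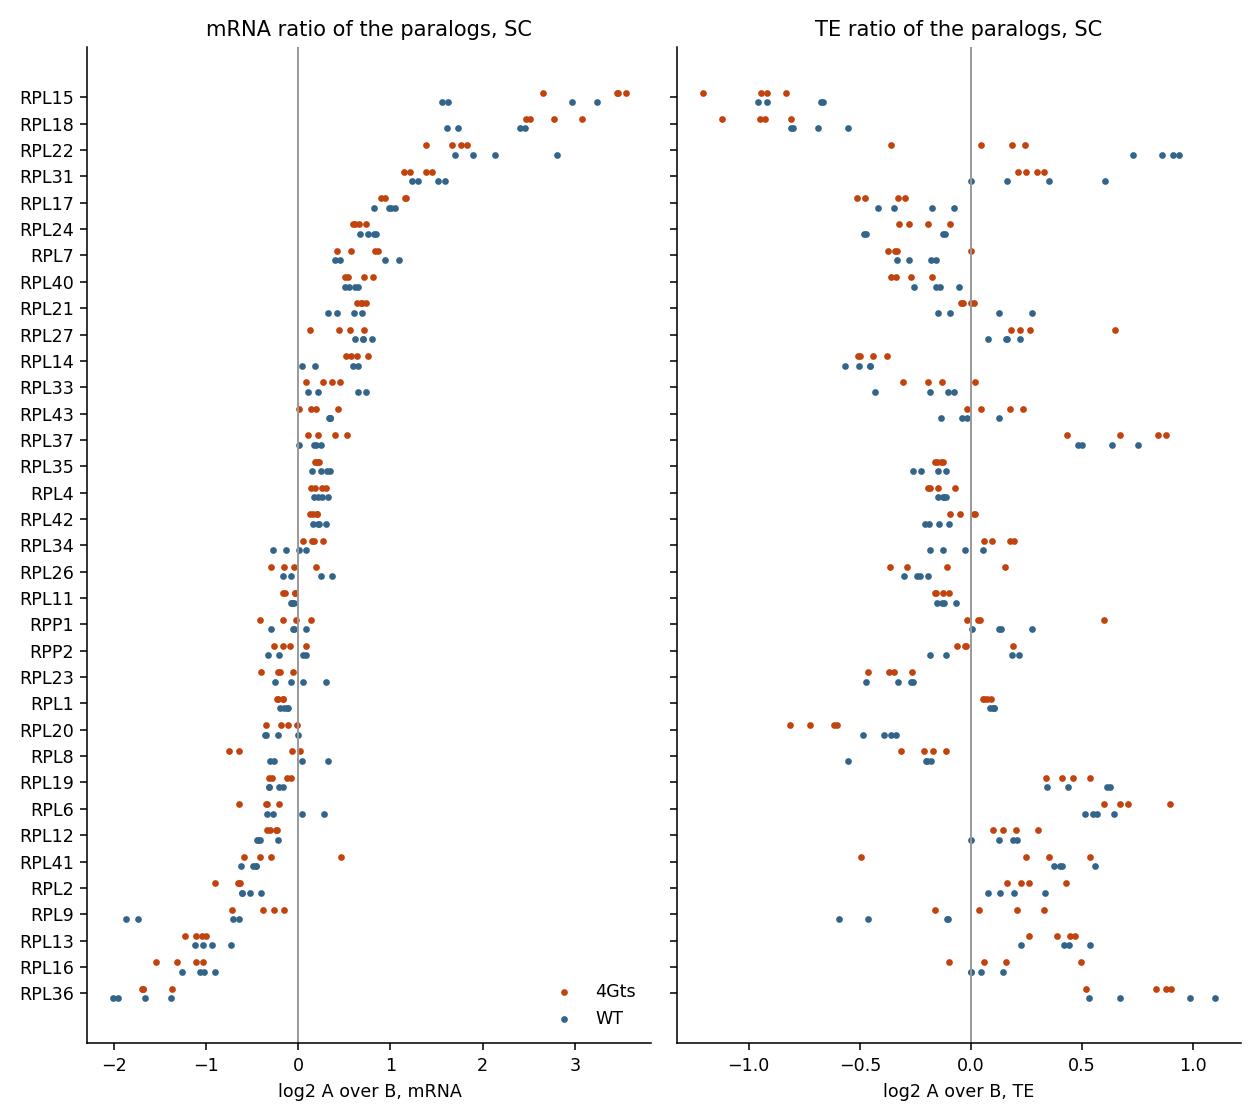
Log2 ratio of the A over the B paralog (x axis) for mRNA (left) and TE (right), for the 35 pairs (y axis) in order of their mean mRNA ratio. Each point is 1 SC culture, with 4Gts drawn above WT. In the RPL22 pair the TE ratio lies between -0.36 and 0.24 in 4Gts cultures and between 0.73 and 0.93 in WT cultures.

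In YPA the strain differences had medians near 0 before the shift and above 0 after 2 h at 36 °C. There is 1 culture per strain and stage, so no difference has a replicate check. The log2 difference of 4Gts minus WT had a median over the 81 genes of 0.08 at pre-shift, 0.22 at 0 h and 0.34 at 2 h for mRNA, and of -0.01, 0.22 and 0.58 for footprints. For TE the medians were -0.09, -0.01 and 0.29. Genes above 0 numbered 57, 68 and 68 in mRNA, 39, 74 and 80 in footprints and 26, 39 and 70 in TE. Past 2-fold higher in footprints were 1, 1 and 8 of the 81 genes, where 1.23%, 1.99% and 10.4% of all 4731 genes were. Past 2-fold higher in mRNA were 1, 1 and 2 genes, where 0.719%, 3.3% and 7.57% of all genes were. In TE, 0, 0 and 2 genes were past 2-fold higher (1.2%, 1.01% and 2.77% of all genes). None of the 81 was past 2-fold lower in any layer, where 1.9%, 1.31% and 15.5% of all genes were in mRNA, 2.71%, 1.2% and 15.6% in footprints and 0.845%, 1.23% and 3.02% in TE.

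Levels of the large subunit genes were lower after 30 min of galactose at 25 °C in both strains. The difference of 0 h minus pre-shift had a median of -0.69 for mRNA and -0.72 for footprints in 4Gts and of -0.86 and -0.97 in WT. Of the 81 genes, 81 in 4Gts and 80 in WT were below 0 in mRNA, and 5 and 11 were past 2-fold lower, where 4.67% and 6.68% of all genes were. In footprints 4 genes in 4Gts and 33 in WT were past 2-fold lower, where 7.19% and 8.54% of all genes were. From 0 h to 2 h at 36 °C the medians were 0.22 for mRNA and 0.64 for footprints in 4Gts and 0.10 and 0.30 in WT, and 12 genes in 4Gts and 0 in WT were past 2-fold higher in footprints, where 12.3% and 6.45% of all genes were. The summed mRNA of HSP104, HSP26 and SSA4 at pre-shift, 0 h and 2 h was 235, 549 and 134 RPKM in 4Gts and 355, 853 and 1843 RPKM in WT, and its part in these values was not tested.

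RPL22B and RPL7B were higher in the 4Gts than in the WT culture at 25 °C as well. RPL22B had 826, 566 and 1048 RPKM of mRNA at pre-shift, 0 h and 2 h in 4Gts, against 418, 325 and 622 RPKM in WT. In footprints it had 971, 693 and 817 RPKM in 4Gts, against 342, 293 and 214 RPKM in WT. Its TE was 1.18, 1.22 and 0.779 in 4Gts, against 0.817, 0.900 and 0.343 in WT, and the log2 TE difference after scaling was 0.37, 0.30 and 1.13. RPL7B had 341, 248 and 356 RPKM of mRNA in 4Gts, against 163, 125 and 107 RPKM in WT, a log2 difference of 1.08, 1.05 and 1.69. The TE of RPP0 was 1.09, 0.965 and 1.32 in 4Gts, against 1.05, 0.940 and 1.36 in WT. After scaling the log2 difference was -0.09, -0.10 and -0.10, so its sign at pre-shift and 0 h turned with the scaling.

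**Figure D5:**
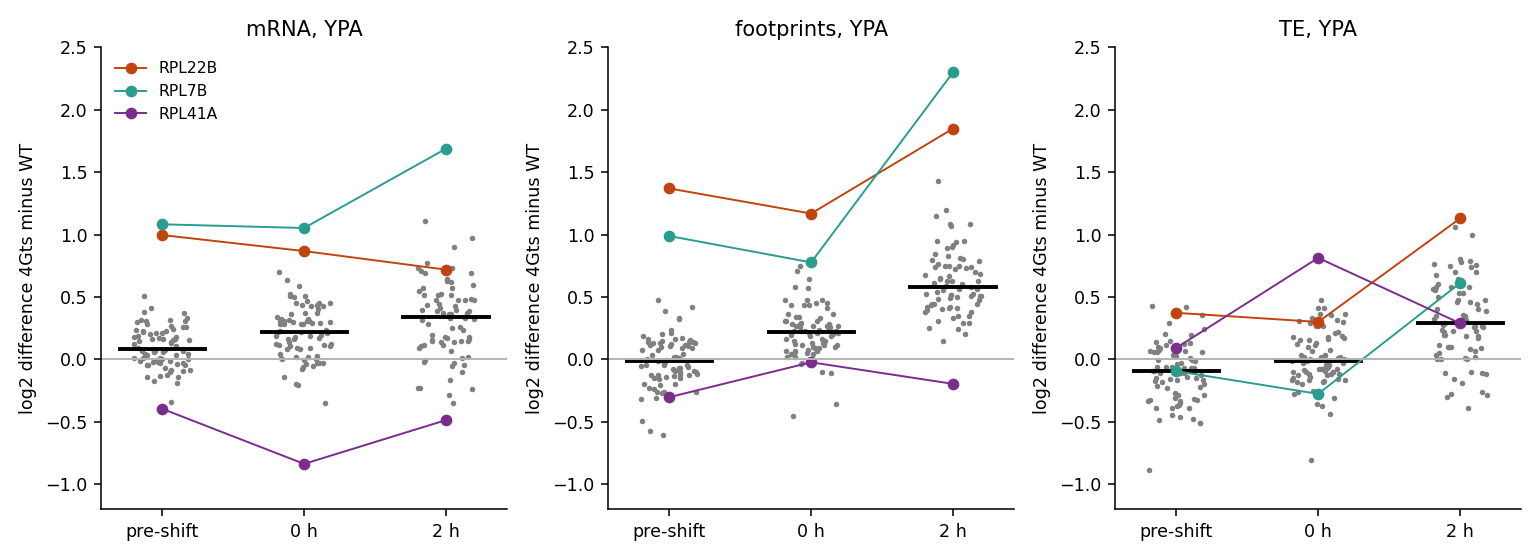
Log2 difference of 4Gts minus WT in YPA at pre-shift, 0 h and 2 h (x axis) for mRNA, footprints and TE (panels). Grey points are single genes of the 81, bars the median over the 81 genes, and lines join 3 named genes. The footprint median is -0.01 at pre-shift, 0.22 at 0 h and 0.58 at 2 h, and RPL22B lies at 1.37, 1.17 and 1.85.

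Other gene lists place these values. The small subunit ribosomal proteins had values near those of the large subunit in SC: all 57 were above 0 in mRNA and footprints in the averaged comparison, with medians of 1.23 and 1.18 and a TE median of -0.03. Of them, RPS14B, RPS25B and RPS29B passed as higher in mRNA, by 1.16, 1.20 and 1.58 (2.58% of all genes higher). With the block, 57 passed in mRNA and 56 in footprints (21.6% and 23.4%). In YPA their medians at pre-shift, 0 h and 2 h were 0.11, 0.16 and 0.27 in mRNA and -0.03, 0.15 and 0.54 in footprints. The 10 translation elongation factors tested had medians of 0.72 for mRNA and 0.52 for footprints, and none passed without the block, with 6 and 3 at an unadjusted p under 0.05 (in footprints 13.9% of all genes higher and 15% lower). In mRNA, 707 of all 4689 genes were higher and 649 lower at that unadjusted p. With the block 9 passed in each, where 21.6% of all genes passed as higher in mRNA and 23.4% in footprints. In symbol order, the first 2 of them, CAM1 and EFB1, had mRNA differences of 0.58 and 0.57.

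Genes for proteins that build the large subunit had lower mRNA and footprint medians than the 81 genes in SC, and higher ones in YPA. In SC the 63 assembly factors tested had medians of 0.63 for mRNA, 0.84 for footprints and 0.22 for TE. Of these, 1 passed as higher in mRNA (TIF6, which keeps the subunits apart, by 1.21), 6 in footprints (among them BUD20 by 1.19, DBP3 by 1.17 and ERB1 by 1.48) and 6 in TE (among them NOC2 by 0.55, NOP12 by 0.68 and NOP15 by 0.87). Of all genes, 2.58%, 3.13% and 2.6% passed as higher. With the block these counts were 38, 56 and 16 (21.6%, 23.4% and 7.12% of all genes), with 1 lower in TE (11.1%). In YPA, 69 of the assembly factors had medians of 0.43, 0.82 and 0.99 in mRNA and of 0.55, 0.79 and 1.15 in footprints at pre-shift, 0 h and 2 h, where those of the 81 genes were 0.08, 0.22 and 0.34 and -0.01, 0.22 and 0.58. The 5 dedicated chaperones of single large subunit proteins had medians of 0.77 for mRNA and 0.74 for footprints. None of the 5 passed the threshold without the block. At an unadjusted p under 0.05, 2 and 3 were counted, where 707 and 651 of all 4689 genes were counted as higher. With the block 3 and 4 passed, where 21.6% and 23.4% of all genes passed as higher. ACL4, the chaperone of Rpl4, was at 0.16 for mRNA and BCP1, that of Rpl23, at 0.11.

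Of 11 regulators of ribosomal protein genes tested, SFP1, a transcription factor that activates them, had 0.86 more mRNA on the log2 scale (limma adjusted p = 0.0462) and a lower TE (-0.65, limma adjusted p = 0.0356). DOT6, a repressor of ribosome synthesis genes, had a lower TE (-0.83, limma adjusted p = 0.0221), and STB3, another repressor, fewer footprints (-0.88, limma adjusted p = 0.0495). Of all 4689 genes in that fit, 121 passed as higher in mRNA, 307 as lower in footprints and 238 as lower in TE. With the block, 6 of the 11 passed as higher and 1 as lower in mRNA, 4 and 1 in footprints and 0 and 3 in TE. Over all 4689 genes, those counts with the block were 1011 and 830, 1098 and 1047, and 334 and 521. The averaged medians over the 11 regulators were 0.36 for mRNA, 0.02 for footprints and -0.33 for TE. Above 0 were 8, 6 and 3 of the 11, where 50.5%, 51.3% and 49.6% of all genes were. The part of the regulators in the values of the 81 genes was not tested.

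Proteins of the mitochondrial large subunit went the opposite way. Of 41 genes, 10 passed as lower in mRNA (3.35% of all genes), 36 in footprints (6.55%) and 14 in TE (5.08%) in the averaged comparison, and none as higher. With the block these counts were 36, 41 and 17 (17.7%, 22.3% and 11.1% of all genes lower). Their medians were -0.67, -1.12 and -0.38. MRPL10, MRPL11 and MRPL13 had mRNA differences of -0.90, -1.09 and -0.75. In YPA all 41 were below 0 at pre-shift in mRNA, with medians of -0.71 at pre-shift, -0.58 at 0 h and -1.26 at 2 h.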

How the data were processed

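The authors deposited RPKM per gene for mRNA and footprint libraries of each medium and, for SC, the ratio of the 2 as TE. Per the submitters' processing notes, TopHat, DESeq and the sacCer3 build were used, with no versions stated. Members were matched by locus tag to RefSeq names of assembly R64 (6008 of 6692 tags matched). The members, lists and tests were chosen with earlier results of these data known. Each library was scaled by the median, over genes, of its RPKM relative to the gene's average in that table. Tests took the 4689 genes averaging 10 RPKM or more in SC mRNA and in SC footprints, all 81 members included. log2(RPKM + 1), and their difference as TE, were fitted with limma 3.58.1 (R 4.3.3) over the 4 SC groups of 2 cultures, with Benjamini-Hochberg adjustment at 0.05 over all genes. Fold changes on this scale understate changes of low genes. A count test was not run, since SC reads appear to be split between copies: among values that round to at most 10 reads, the share lying within 0.05 of a whole read was 78.4% to 85.3% over SC libraries, against 96.2% to 98.2% over YPA libraries.

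The labels do not say whether numbered cultures, or 2 h and 8 h cultures of a number, are independent, so p-values measure the spread between these cultures. Culture numbers shared by the groups were checked as pairs: the correlation of deviations from the group means was 0.56 to 0.93 in mRNA, 0.68 to 0.96 in footprints and 0.14 to 0.60 in TE over the 6 pairs of groups. The number was used as a block on this basis, although the labels do not say what a number shares, and both fits are reported. YPA has no replicates, and differences past 2-fold are counted there. The fit without the block was run on simulated data in the averaged strain comparison, with noise independent between cultures. That simulation held no deviation shared by same-numbered cultures, so it cannot show how such deviations, or the block, affect the calls.

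Named genes were every member past the threshold in an SC comparison by the fit without the block. Also named were the 3 highest and 3 lowest members per strain comparison, a preset group by role, and extreme pairs and levels. Up to 3 genes of each other list were added, with TIF4632, TIF4631 and GAL1 as checks. The text gives in full those that the results turn on. Alternatives were another pseudocount, no filter, no scaling, quantile normalization, each culture left out, the block, the authors' TE, and 2 h and 8 h averaged. Added after seeing the data were the block without each culture, the averaged fit with the block, and summed pairs.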

Additional observations from a re-analysis of the deposited data

Results flagged for a closer look

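RPL41A differed in direction between the media. In SC its mRNA was higher in 4Gts in all 4 pairs of same-numbered cultures, with a mean log2 difference of 0.57 (0.34 to 0.83), and in YPA it was lower in 4Gts at all 3 stages, with a mean of -0.57 (-0.84 to -0.40), a gap of 1.14. For RPL41A footprints the mean was 0.90 in SC (0.47 to 1.23) and -0.17 in YPA (-0.30 to -0.02), a gap of 1.07. The difference between the media was not tested. RPL41A rested on 74 to 1023 reads per YPA library. Its near-identical copy, RPL41B, was above 0 in YPA footprints at all 3 stages, at 0.10, 0.17 and 0.38. The tables of the 2 media hold split and whole reads for such pairs. The part of that in these values was not tested.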

How the results depend on the processing

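Every median over the 81 genes stayed above 0 in mRNA and footprints in the strain comparisons when each culture was left out, with averaged medians between 0.90 and 1.62 in mRNA and between 0.96 and 1.61 in footprints, while that of TE lay between -0.10 and 0.11. The medians at single times ran wider, from 0.66 to 1.98 at 2 h and from 0.57 to 1.85 at 8 h in mRNA and from 0.83 to 2.03 and from 0.48 to 1.75 in footprints. The replicate block moved the counts most: in mRNA it called 76 members at 2 h, 48 at 8 h and 79 averaged, in footprints 81, 77 and 81, and in TE 1 at 2 h and 4 averaged. With 1 culture left out, the counts with the block were 0 to 75, 0 to 72 and 75 to 79 in mRNA, 53 to 81, 0 to 81 and 81 in footprints, and 0 to 4, 0 to 1 and 0 to 9 in TE (2 h, 8 h and averaged). Over all genes, averaged calls without the block were 121 higher and 157 lower in mRNA, 147 and 307 in footprints and 122 and 238 in TE, and with it 1011 and 830, 1098 and 1047, and 334 and 521. In the averaged comparison without the block, 7 members passed in mRNA with no scaling and 7 with quantile normalization. In footprints 1 passed with no filter, 11 with quantile normalization, 0 with 2 h and 8 h averaged, and between 0 and 2 with 1 culture left out. In TE 0 passed with no filter, 4 with quantile normalization, 0 with 2 h and 8 h averaged, and between 0 and 3 with 1 culture left out. With 2 h and 8 h averaged and the replicate block, an alternative chosen after seeing the data, 71, 79 and 0 members passed in mRNA, footprints and TE. The causes were not tested. No result changed direction past its threshold. Each of the 81 genes had at least 124 reads in every SC library and 64 in every YPA library, and the part of depth in the calls was not tested.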
